A study of Mus musculus with 12 samples.

Results

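The comparison described here sets control oocytes of the GO stage against control oocytes of the NGO stage, gene by gene. The data come from a mouse study of RNase H1, encoded by Rnaseh1, an enzyme that cuts the RNA of RNA-DNA hybrids. Its 12 samples cover 2 genotypes at 3 stages, with 2 samples for each combination. The column WT GO, headed Rnaseh1 fl/fl GO, is set against WT NGO, headed Rnaseh1 fl/fl NGO. By these headers, WT in the labels means oocytes whose Rnaseh1 alleles are floxed and not deleted. The same step in KO oocytes, headed Rnaseh1 oo-/-, is given beside it as KO GO against KO NGO. The labels state neither the strain nor the age of the animals, nor the Cre driver behind the KO columns. A sample pooled 10 oocytes, to which 100 pg of ERCC RNA was added as a spike-in, and was read by Smart-seq2 from polyadenylated RNA. What NGO and GO abbreviate is not written out in the labels; such names usually mean non-growing and growing oocytes in work on follicles.

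Genes were kept when their FPKM (fragments per length of transcript and per total of mapped fragments, here adjusted to the spike-in by the authors) averaged at least 1 over the 6 columns of the table. This left 10110 genes of 25162. The genes just inside this limit were Ncbp1, with 1.22 FPKM in GO and 0.639 in NGO, and Rhox10, with 1.27 in GO and 0.708 in NGO. Just outside it lay Pfkfb2, with 0.913 FPKM in GO and 0.446 in NGO, and Nf1, with 0.824 in GO and 0.530 in NGO. Of the genes compared, 43 were listed at 0 in NGO and 2 at 0 in GO, and 299 were under 1 FPKM in both WT columns. The table has 1 column per group and does not say whether it is a mean, a pool or 1 of the 2 samples. All differences are therefore between single columns without replication, and neither a test nor an error accompanies them.

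Oocytes of primordial follicles rest in meiotic prophase until they are recruited to grow. During growth an oocyte enlarges, lays down the zona pellucida, transcribes and stores the maternal mRNAs used by the egg and early embryo, and acquires its DNA methylation. Signals pass between it and the granulosa cells through secreted factors such as GDF9 and BMP15 and through Kit.

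The 250 bases before the start site are shown for the 3 genes with a proper name that had the largest relative increase, and for 3 genes with a large relative decrease, because the promoters of the increased genes held few CpG dinucleotides. The sequences are from RefSeq on GRCm38.p6, read 5′ to 3′ on the gene's strand, with each CpG in capitals. The increased genes are Oog1 (chr12:87602415-87602664, + strand), Cphx3 (chr14:26221654-26221903, + strand) and Mbd3l2 (chr9:18430365-18430614, + strand).
Oog1: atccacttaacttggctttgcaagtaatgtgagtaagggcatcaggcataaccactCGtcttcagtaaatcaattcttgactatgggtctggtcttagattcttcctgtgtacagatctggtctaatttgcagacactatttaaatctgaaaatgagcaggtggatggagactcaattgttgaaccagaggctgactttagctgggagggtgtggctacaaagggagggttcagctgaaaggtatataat
Cphx3: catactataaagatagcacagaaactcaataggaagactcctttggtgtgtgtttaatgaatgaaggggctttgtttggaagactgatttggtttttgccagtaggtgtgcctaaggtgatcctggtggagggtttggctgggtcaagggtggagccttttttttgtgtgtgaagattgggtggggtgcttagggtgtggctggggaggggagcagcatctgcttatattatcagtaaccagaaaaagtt
Mbd3l2: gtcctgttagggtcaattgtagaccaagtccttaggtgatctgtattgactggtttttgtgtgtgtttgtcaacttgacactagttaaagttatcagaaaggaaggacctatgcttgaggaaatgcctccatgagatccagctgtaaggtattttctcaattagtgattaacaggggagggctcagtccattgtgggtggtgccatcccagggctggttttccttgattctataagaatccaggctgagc
The decreased genes are Marcksl1 (chr4:129513331-129513580, + strand), Maged1 (chrX:94542026-94542275, - strand) and Sohlh2 (chr3:55181794-55182043, + strand).
Marcksl1: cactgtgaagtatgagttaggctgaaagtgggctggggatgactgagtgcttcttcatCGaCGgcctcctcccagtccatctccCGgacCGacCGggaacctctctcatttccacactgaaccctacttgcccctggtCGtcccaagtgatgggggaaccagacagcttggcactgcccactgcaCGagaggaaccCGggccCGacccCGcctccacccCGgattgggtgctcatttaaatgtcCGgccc
Maged1: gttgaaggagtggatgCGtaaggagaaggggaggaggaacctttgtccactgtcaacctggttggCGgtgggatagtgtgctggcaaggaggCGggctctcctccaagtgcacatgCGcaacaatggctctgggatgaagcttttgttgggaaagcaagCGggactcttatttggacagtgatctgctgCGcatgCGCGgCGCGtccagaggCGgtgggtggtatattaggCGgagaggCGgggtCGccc
Sohlh2: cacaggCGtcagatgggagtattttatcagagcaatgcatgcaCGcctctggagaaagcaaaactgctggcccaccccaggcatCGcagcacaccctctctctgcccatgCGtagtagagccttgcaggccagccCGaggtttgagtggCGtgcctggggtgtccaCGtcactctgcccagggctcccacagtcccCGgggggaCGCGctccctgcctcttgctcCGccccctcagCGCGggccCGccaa
The Cphx3 entry precedes a RefSeq start site that lies inside the span given for that gene below, whose start is further upstream. The first set holds 1, 0 and 0 CpG in this order, and the second holds 12, 14 and 14.

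On the authors' spike-in scale, nearly the whole transcriptome stood higher in GO. Summed over all genes, FPKM came to 384421 in WT GO and 156837 in WT NGO, a ratio of 2.45. The median gene compared was at 9.47 FPKM in GO and 3.70 in NGO. A higher value in GO was found for 9791 genes and a lower one for 317. How far a sum of adjusted FPKM stands for the RNA of an oocyte was not tested, since the sources used here do not give the formula of the adjustment. In the KO columns the sums were 355744 in GO and 132093 in NGO, a ratio of 2.69, and 57.6% of the genes were at least 2-fold higher in KO GO.

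The shift also moved genes across detection and abundance levels. At 1 FPKM or more there were 10082 genes in GO and 8314 in NGO, and at 100 FPKM or more 712 in GO and 216 in NGO. Of all 25162 genes in the table, before the filter, 1859 went upward across 1 FPKM and 91 went down across it. The order of the genes changed little by comparison. Spearman's rho between the WT columns was 0.927 across genes, which are not independent replicates, and 80 of the 100 most abundant genes were shared. The 10 most abundant genes took 7.70% of the sum in GO and 10.5% in NGO.

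A gene was called when GO and NGO differed by at least 1 on the log2(FPKM + 1) scale, that is 2-fold. As deposited, 5540 genes (54.8%) reached 2-fold in the direction of GO and 13 (0.129%) reached it in the direction of NGO. All genes had a median log2 difference of 1.06. To show which genes departed from this common shift, columns were also put on a common scale with median-ratio factors, a step called rescaling below in which the typical gene is held equal in all 6 columns. The factors were 1.29 for WT GO and 0.514 for WT NGO, and the median difference became -0.01. After rescaling, 613 genes (6.06%) passed 2-fold upward and 331 (3.27%) downward. At 4-fold there were 115 higher (1.14%) and 16 lower (0.158%). A gene lower after rescaling need not have had less RNA: of the 331, the deposited value was lower in GO for 253 and higher for 78. The plot of both columns shows the common shift and the genes on either side of it.

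**Figure D1:**
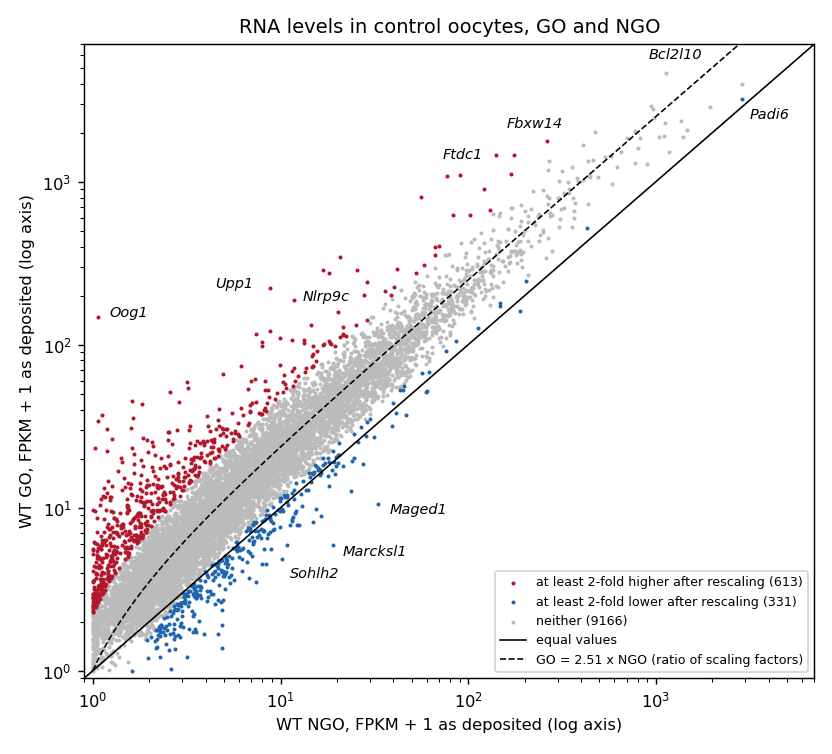
Each point is 1 of the 10110 genes, with its WT GO value (y axis) against its WT NGO value (x axis), both as deposited FPKM + 1 on log axes. Nearly all points lie above the line of equal values, the 613 genes at least 2-fold higher after rescaling lie above the dashed line of the scaling factors, and the 331 lower ones lie below it.

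The 10 most abundant RNAs of GO and of NGO shared several genes. Bcl2l10, an oocyte member of the Bcl2 family, led with 4633 FPKM in GO and 1137 in NGO. Zp3, a zona pellucida protein that binds sperm, had 3980.3 FPKM in GO and 2865 in NGO. Padi6, needed for the cytoplasmic lattices of the oocyte, had 3216 in GO and 2875 in NGO. Padi6 and Zp3 were the first 2 genes of the NGO column, so that RNAs of the zona and the maternal complex already stood at the top of that column. Elobl, Zp2, the oocyte linker histone H1f8, the oocyte nucleoplasmin Npm2, Ldhb, Nlrp14 and Tle6 completed the first 10 in GO. Zp2, Tle6, Zbed3, Ldhb, Eef1a1, Bcl2l10, Nlrp14 and Ubb completed those of NGO.

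The gain in FPKM was spread over many genes. The 10 genes of largest gain made up 7.46% of the summed difference between the columns and the 100 largest 30.2%. Bcl2l10, Elobl, H1f8, Btg4, Fbxw14, Npm2, Ftdc1, Ftdc2, Bpgm and Fbxw28 were the first 10. Btg4, an adaptor that brings the deadenylase to maternal mRNAs at meiotic maturation, had 2030.0 FPKM in GO and 475 in NGO. Ftdc1, a gene with a ferritin-like domain, had 1455 in GO and 140.3 in NGO, a rescaled log2 difference of 2.04. Losses were small: the largest was that of Ftl1, the ferritin light chain, with 159.9 FPKM in GO and 187 in NGO, and Ftl1 has near-identical pseudogene copies that may share its reads.

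The gene with the largest relative increase was Oog1, an oogenesin with leucine-rich repeats expressed in oocytes. It lies on chromosome 12 from 87602665 to 87608845 (GRCm38.p6) and had 148 FPKM in GO and 0.0670 in NGO, a rescaled log2 difference of 6.68. KO oocytes had 216 FPKM in GO and 9.54 in NGO. Its transcript has 3 near-identical copies in the annotation, so reads may be split among them. The oocyte homeobox genes Cphx3 (chromosome 14, 26220923 to 26235744) and Cphx1 came next among genes with a proper name, with Mbd3l2 (chromosome 9, 18430615 to 18446316), a relative of the methyl-CpG-binding protein Mbd3. Cphx3 had 32.8 FPKM in GO and 0.0637 in NGO, Cphx1 had 22.1 in GO and 0.0241 in NGO, and these 2 are near-identical to each other and to Cphx2. Mbd3l2 had 29.4 FPKM in GO and 0.188 in NGO, a rescaled difference of 4.12. All 4 of these genes stood far under 1 FPKM in NGO, so the size of their fold depends on the pseudocount.

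Upp1, uridine phosphorylase 1, was the most abundant of the 20 largest, with 222 FPKM in GO and 7.74 in NGO, a rescaled log2 difference of 3.43. Ehf, an ETS transcription factor known from epithelia, had 42.5 FPKM in GO and 0.820 in NGO. Rgs10, a regulator of G-protein signalling, had 53.4 FPKM in GO and 2.21 in NGO. These 3 were at least 2-fold higher after rescaling in the KO columns too, where 5.37% of all genes were, at 4.07, 3.73 and 2.50 in this order. Bmp5, a ligand of the BMP family, had a rescaled difference of 3.03. Epha4, an ephrin receptor, had one of 2.90, and Magea10, of the MAGE family, had 13.6 in GO and 0.201 in NGO. Amd1, an enzyme of polyamine synthesis, stood at 8.65 FPKM in GO and 0.00625 in NGO, but in the KO columns at 0.0150 in GO and 0.00604 in NGO. Amd1 has a near-identical copy, Amd2, and Rpl7a, also among the 20, has 32, so that both values are uncertain.

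**Figure D2:**
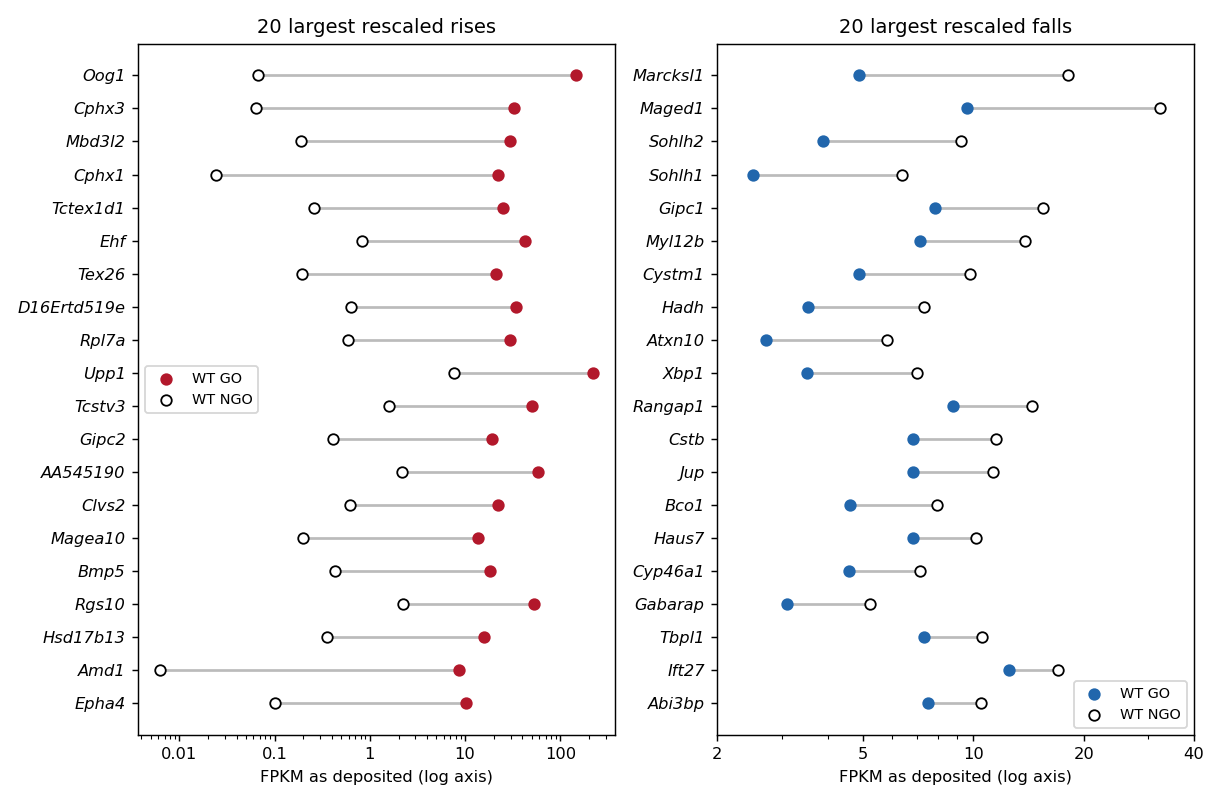
Deposited FPKM on a log axis for the 20 genes with the largest rescaled increase (left) and the 20 with the largest rescaled decrease (right), among named genes that reached 5 FPKM in either column. Filled points are WT GO and open points WT NGO, such as Oog1 at 148 in GO and 0.0670 in NGO and Marcksl1 at 4.88 in GO and 18.1 in NGO.

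The remaining genes of the 20 largest relative increases were Tctex1d1, Tex26, D16Ertd519e, Tcstv3, Gipc2, AA545190, Clvs2 and Hsd17b13. Their rescaled differences lay between 2.97 for Hsd17b13 and 3.78 for Tctex1d1. Of the 20, 19 were at least 2-fold higher in the KO columns, Amd1 being the exception. Bmp5, Clvs2, Gipc2 and Tctex1d1 share exon sequence with a gene on the other strand, and the libraries do not keep the strand.

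Of named genes with at least 5 FPKM in NGO, 4 had the largest relative decreases. Marcksl1, which binds actin and membranes, had 4.88 FPKM in GO and 18.1 in NGO, a rescaled log2 difference of -2.92. Maged1, a MAGE-family adaptor, had 9.61 FPKM in GO and 32.2 in NGO, a rescaled difference of -2.92. Both were also at least 2-fold lower on the deposited scale. Sohlh1 and Sohlh2 are basic helix-loop-helix factors that act in oocytes of primordial and early growing follicles. Sohlh2 had 3.87 FPKM in GO and 9.24 in NGO, and Sohlh1 had 2.51 in GO and 6.37 in NGO. KO oocytes showed the same order: Sohlh2 had 7.02 FPKM in GO and 11.0 in NGO, and Sohlh1 had 1.63 in GO and 8.32 in NGO. Both factors thus stood lower in GO in each genotype.

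The other genes of large relative decrease had lower deposited values in GO as well, by less than 2-fold on the call scale. Xbp1, a transcription factor of the unfolded protein response, had 3.50 FPKM in GO and 6.99 in NGO. Gipc1, an adaptor of endocytic trafficking, had 7.85 in GO and 15.5 in NGO, and Jup, a junctional catenin, had 6.83 in GO and 11.3 in NGO. Gabarap, of autophagosome formation, had 3.11 FPKM in GO and 5.21 in NGO. The rest of the 20 were Myl12b, Cystm1, Hadh, Atxn10, Rangap1, Cstb, Bco1, Haus7, Cyp46a1, Tbpl1, Ift27 and Abi3bp, with rescaled differences between -2.09 for Myl12b and -1.65 for Abi3bp. All 20 had a negative rescaled difference in the KO columns, but for 8 of them the deposited value was higher in KO GO than in KO NGO, as for Xbp1 with 10.4 FPKM in KO GO and 9.98 in KO NGO. Tbpl1 overlaps a gene on the other strand and Myl12b overlaps Myl12a, so their reads may be shared.

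The 13 genes at least 2-fold lower as deposited were Bin1, Marcksl1, Maged1, Map3k21, Ly6c1, Acadl, Dcn, Rap1gap, Sohlh1, Sohlh2, Fbln1, Stard10 and Cat. Bin1, which bends membranes, had 0.381 FPKM in GO and 3.89 in NGO. Acadl, a mitochondrial acyl-CoA dehydrogenase, had 0.916 in GO and 3.89 in NGO, and catalase (Cat) had 0.364 in GO and 1.76 in NGO. All 13 had a lower value in KO GO than in KO NGO, and 5 of them were at least 2-fold lower there as deposited, where the share of all genes was 0.089%. Dcn, with 0.0306 FPKM in GO and 1.60 in NGO, is also a marker of stroma.

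Apart from C1qb, the markers of other ovarian cells stood at no more than 8.28 FPKM in GO and 2.11 in NGO. Of 25 granulosa and pregranulosa markers, 5 were at 1 FPKM or more in GO and 1 in NGO, and their values summed to 26.2 FPKM in GO and 6.36 in NGO. Foxl2 and Amh, which define granulosa cells, were at 0.121 and 0.0844 FPKM in GO and at 0.0347 and 0.117 in NGO. The highest granulosa marker in GO was the estrogen receptor gene Esr2, with 8.28 FPKM in GO and 0.744 in NGO, and it was 9.47 in KO GO and 0.709 in KO NGO. Nr5a2 had 4.35 FPKM in GO and 0.491 in NGO, and Cdkn1b had 3.40 in GO and 1.75 in NGO. Krt8 had 3.37 in GO and 0.513 in NGO, and Kitl had 1.47 in GO and 0.0956 in NGO. Of 13 theca and stroma markers, 0 were at 1 FPKM or more in GO and 1, Dcn, in NGO, with sums of 1.67 FPKM in GO and 4.44 in NGO.

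Among 8 immune markers the sums were 26.0 FPKM in GO and 3.44 in NGO, nearly all of it C1qb, with 24.7 in GO and 2.84 in NGO, while Ptprc, Adgre1, Lyz2 and C1qa were at 0 in both. Among 7 endothelial and blood markers the sums were 6.47 FPKM in GO and 2.74 in NGO, led in GO by Pecam1 at 5.82 and in NGO by Hba-a1 at 2.11, which was at 0 in GO. Of 4 markers of the ovarian surface epithelium 0 reached 1 FPKM, with Upk1b and Krt7 at 0 in both. All 16 oocyte markers were at 1 FPKM or more in both columns, with sums of 16995 FPKM in GO and 11246 in NGO. The part of other cells in the differences above was not tested, and in such pooled samples fewer cells of a type and less RNA per cell cannot be told apart.

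The transcription factors of early oogenesis moved apart from one another. Of 25 genes listed, 21 passed the filter, 3 were at least 2-fold higher after rescaling and 3 at least 2-fold lower, and their median was -0.06. Sall4, a zinc finger factor needed for oocyte methylation and meiotic competence, had 305 FPKM in GO and 57.3 in NGO, a rescaled difference of 1.08. Bnc1, basonuclin, had 112 in GO and 21.4 in NGO, and Gata4, which granulosa cells also express, had 8.33 in GO and 0.765 in NGO. Nobox and Lhx8, homeobox factors that act with Figla and the Sohlh pair at the start of oocyte growth, followed the common shift. Nobox had 191 FPKM in GO and 80.4 in NGO (-0.08 after rescaling), Lhx8 had 145 in GO and 60.2 in NGO (-0.06), and Figla had 51.1 in GO and 29.6 in NGO (-0.53). Stat3, with 30.6 FPKM in GO and 38.1 in NGO, was lower with Sohlh1 and Sohlh2. After the same step in KO none of the 3 increased factors passed 2-fold after rescaling, at 0.80 for Gata4, 0.74 for Sall4 and 0.42 for Bnc1.

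Ligands and receptors of the oocyte and follicle lay on both sides of the median gene. Of 20 genes, 15 passed the filter and their rescaled median was -0.05, with 1 at least 2-fold higher and 0 lower. That gene was Tgfb2, a ligand of the TGF-beta family, with 59.2 FPKM in GO and 10.9 in NGO. Bmp15 came close, with 631 FPKM in GO and 135 in NGO (0.89 after rescaling), while its partner Gdf9 had 1609.7 in GO and 799.9 in NGO (-0.32). Rspo2, an activator of WNT signalling, had 192 in GO and 49.4 in NGO. The receptor Kit had 58.6 FPKM in GO and 26.6 in NGO (-0.19). Gja4, the connexin of oocyte gap junctions, had 285 in GO and 131 in NGO (-0.21).

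Counts in each of the 42 lists are to be read against the shares of all genes, 6.06% higher and 3.27% lower. A member that passed the filter only through its GO value had to differ, so the median over all members in the table is given beside that of the genes compared where they differ. By the median over all in the table, the Obox and Fbxw lists stood highest, while the oogenesin list, at -0.01, and the two-cell list, at 0.00, stood at the median gene. Of 16 Obox and other oocyte homeobox genes, 13 were in the table and 9 passed the filter. After rescaling 7 of these were at least 2-fold higher and 0 lower, with a median of 1.36, or 1.08 over all 13. Obox5 was the most abundant, with 625 FPKM in GO and 82.0 in NGO, Obox2 had 214 in GO and 35.0 in NGO, and Obox7 was the largest of the Obox genes at 2.47 after rescaling. Rhox10, at -0.26, was the member that stood below the median gene. Obox1, Obox2, Obox5 and Obox7 have near-identical copies among themselves, so their single values are uncertain.

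The oocyte Fbxw genes of the F-box family lie in a cluster on chromosome 9, except Fbxw17 on chromosome 13. Of 15 listed, 14 were in the table and passed the filter, and 14 were at least 2-fold higher as deposited. After rescaling 5 were at least 2-fold higher and 0 lower, with a median of 0.73. Fbxw14 had 1783 FPKM in GO and 261 in NGO, Fbxw28 had 1448 in GO and 174 in NGO, and these 2 are near-identical. Fbxw19, the largest at 1.91 after rescaling, had 131 in GO and 13.5 in NGO. Fbxw15 and Fbxw27 kept to the common shift, at -0.01 and -0.06. The 5 increased members, Fbxw14, Fbxw28, Fbxw22, Fbxw16 and Fbxw19, are the only genes compared between positions 109270789 and 109495863 of chromosome 9 (GRCm38.p6). All 5 were at least 2-fold higher in the KO columns after rescaling, beside 5.37% of all genes.

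The oogenesins and the oocyte Oas1 genes, on the same list, went different ways. Oog1, Oog2, Oog3 and Oog4 were each at least 2-fold higher after rescaling, as was Oas1f, while 0 of the list's 10 genes that passed the filter were lower. Oog4 had 343 FPKM in GO and 19.6 in NGO (2.77), and Oog3 had 275 in GO and 17.1 in NGO (2.64). The abundant Oas1 relatives stood at or below the median gene. Oas1e had 1524 FPKM in GO and 648 in NGO (-0.09), and Oas1d had 661 in GO and 365 in NGO (-0.47). The median was 0.78 over the 10 and -0.01 over the 12 of the list in the table.

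NLR-family genes of the oocyte went both ways. Of 13 listed outside the maternal complex, 12 were in the table and 9 passed the filter, with 3 at least 2-fold higher, 0 lower and a median of 0.64, or 0.19 over the 12. The 3 were the Nlrp9 genes. Nlrp9b had 285 FPKM in GO and 24.4 in NGO, Nlrp9c had 188 in GO and 10.8 in NGO, and Nlrp9a had 105 in GO and 10.5 in NGO. Their rescaled differences were 2.19, 2.74 and 1.94 in this order. The Nlrp4 genes ran between -0.46 for Nlrp4c and 0.77 for Nlrp4a. KO oocytes had 5 genes of the list at least 2-fold higher, beside 5.37% of all genes. The list's median in KO was 1.08, with Nlrp4a at 1.08 and Nlrp4e at 1.14. Nlrp14, by far the most abundant of the list, stood below the median gene, with 2284 FPKM in GO and 1123 in NGO (-0.30).

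The subcortical maternal complex, which the early embryo needs to divide, had the lowest median of the lists, -0.58 over its 10 genes in the table, all compared. After rescaling 2 were at least 2-fold lower and 0 higher. Those were Padi6, at -1.17, and Nlrp5 (MATER), with 518 FPKM in GO and 430.0 in NGO (-1.06). Both had a higher deposited value in GO. Tle6 had 2078 in GO and 1469 in NGO, and Ooep had 1278 in GO and 892 in NGO. The list took 2.72% of the summed FPKM in GO and 4.91% in NGO. KO oocytes had Nlrp5 close to the median gene, with 1274 FPKM in GO and 489.6 in NGO (-0.05). The list's median in KO was -0.23, with 1 gene higher and 0 lower, beside 5.37% and 2.59% of all genes.

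Egg coat genes lay on both sides of the median gene. The list's 12 genes compared of 13 had a median of 0.01, with 1 at least 2-fold higher and 1 lower, and took 2.86% of the sum in GO and 4.19% in NGO. Zp1, Zp2 and Zp3 stood below the median gene at -0.59, -0.76 and -0.85. Oosp3, of a family of oocyte-secreted proteins, was the higher one, with 201 FPKM in GO and 27.0 in NGO. Izumo1r (JUNO), the egg's receptor for sperm, had 200.3 in GO and 63.7 in NGO (0.32), and the tetraspanin Cd9 had 513 in GO and 161 in NGO (0.34). The tetraspanin Cd81 was the lower one, with 0.333 FPKM in GO and 1.55 in NGO.

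**Figure D3:**
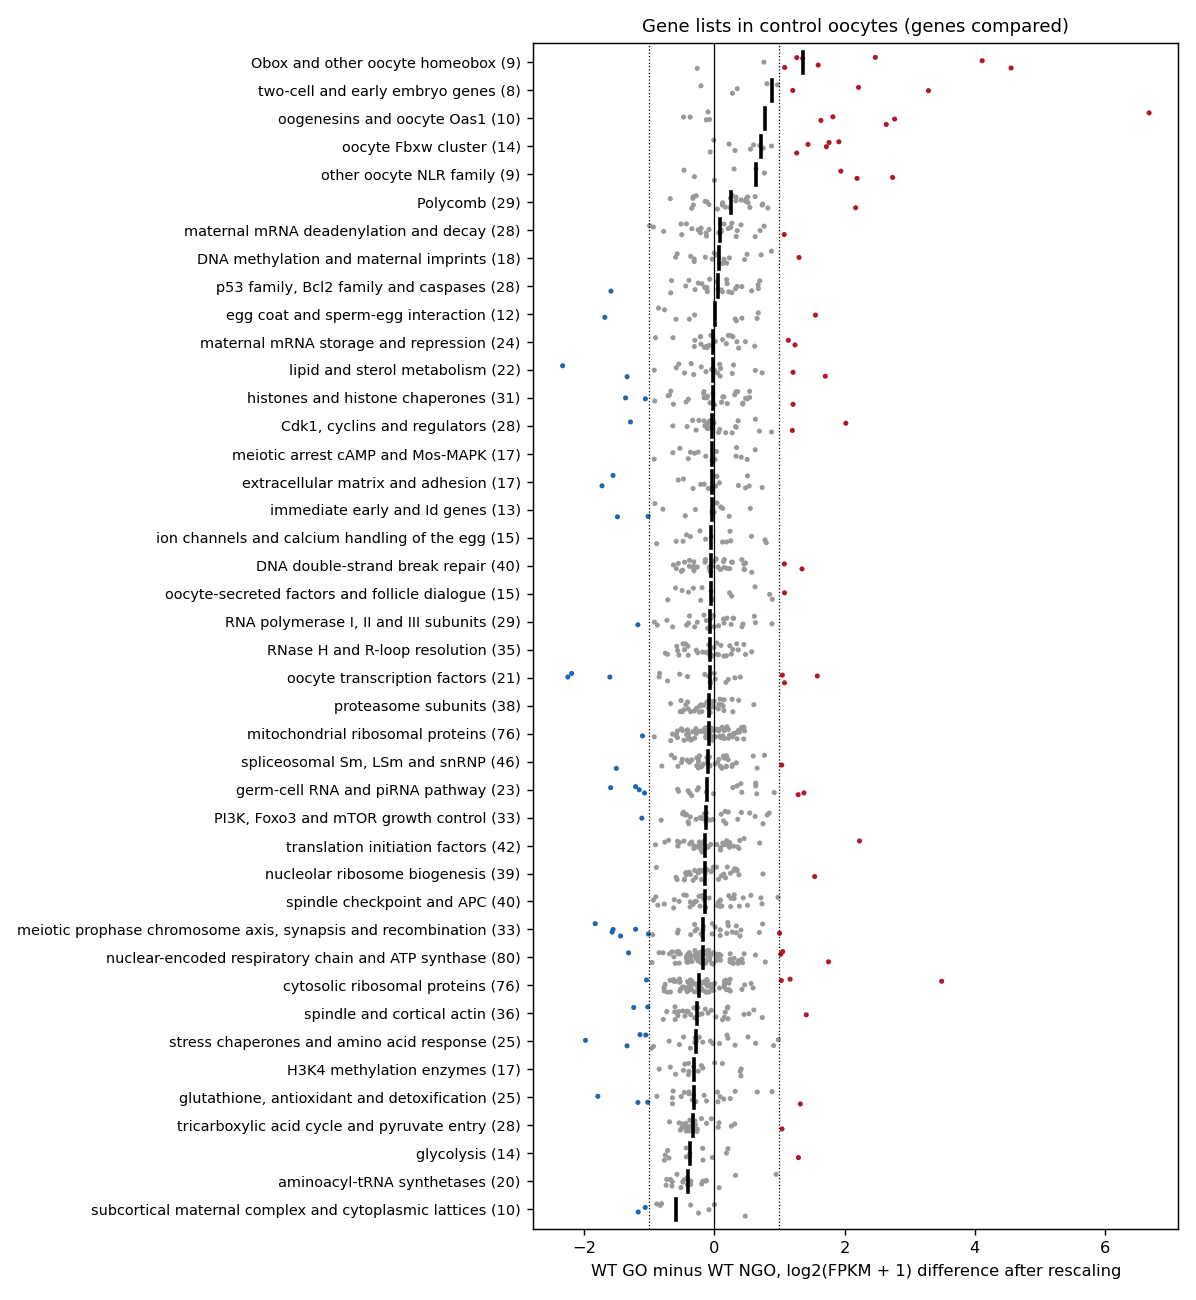
Each point is a gene of 1 of 42 lists, placed by its rescaled log2(FPKM + 1) difference, WT GO minus WT NGO, with the number of genes compared in brackets and vertical bars at the list medians. Dotted lines mark 2-fold, red and blue points lie beyond them, and the medians run down the page, with 1.36 for the Obox list at the top and -0.58 for the subcortical maternal complex at the bottom.

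Genes of the two-cell embryo were mostly near 0 in both columns, and 8 of the 25 in the table passed the filter. After rescaling 3 of these were at least 2-fold higher and 0 lower, with a median of 0.89, or 0.00 over all 25. Tcstv1 had 109 FPKM in GO and 8.95 in NGO, Tcstv3 had 50.1 in GO and 1.58 in NGO, and both have near-identical copies. Dppa2, a chromatin factor of pluripotent cells, had 102 in GO and 17.2 in NGO (1.21), and its partner Dppa4 had 7.27 in GO and 1.43 in NGO (0.81). Zscan4d, at 1.49 FPKM in GO and 0.0500 in NGO, stayed low and has 8 near-identical copies.

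The machinery of DNA methylation, which is laid down in growing oocytes, was present in both columns. Of 23 genes, 22 were in the table and 18 passed the filter, with a rescaled median of 0.08, 1 at least 2-fold higher and 0 lower. The 1 was Dnmt3l, the cofactor of the de novo methyltransferases, with 6.79 FPKM in GO and 0.792 in NGO. The methyltransferase Dnmt3a had 19.6 in GO and 8.64 in NGO (-0.14). The maintenance enzyme Dnmt1 had 447 FPKM in GO and 264 in NGO (-0.57). Kdm1b, which removes H3K4 methylation ahead of imprinting in oocytes, had 31.6 in GO and 19.2 in NGO (-0.59). The 17 H3K4 methylation enzymes compared had a median of -0.31, with 0 called, and the 29 Polycomb genes a median of 0.25, or 0.15 over the 34 in the table. Scml2, a germline Polycomb protein, was the Polycomb gene at least 2-fold higher, with 30.5 FPKM in GO and 2.30 in NGO.

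Stored maternal mRNA is held silent and later deadenylated, and genes of both tasks were listed. Of 28 storage and repression genes 24 passed the filter, with a rescaled median of -0.02, 2 at least 2-fold higher and 0 lower. Zar1l had 111 FPKM in GO and 19.8 in NGO (1.14), and the translational repressor Nanos1 had 16.7 in GO and 2.52 in NGO (1.24). Zar1, the relative of Zar1l, had 1064 in GO and 445 in NGO (-0.07), and Cpeb1, which binds the cytoplasmic polyadenylation element, had 326 in GO and 149.6 in NGO (-0.20). Of 32 decay genes 28 passed, with 1 higher, beside 6.06% of all genes, and 0 lower. The median was 0.08, and -0.10 over all 32 in the table. The higher gene was Ythdf3, which reads methylated mRNA, with 39.9 FPKM in GO and 7.27 in NGO. Btg4 stood at 0.77 after rescaling and Cnot6l, a catalytic deadenylase subunit, at 0.70.

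Genes of meiotic prophase had more decreases than increases. Of 55 listed, 48 were in the table and 33 passed the filter. After rescaling 6 were at least 2-fold lower and 1 higher, that is 6 of 33 beside 3.27% of all genes, with a median of -0.16, or -0.03 over the 48. Syce1, of the central element of the synaptonemal complex, had 1.55 FPKM in GO and 3.50 in NGO. Smc1b, a cohesin subunit of meiosis, had 5.47 in GO and 7.46 in NGO. Ccnb1ip1 (HEI10), of crossover formation, had 1.83 in GO and 3.12 in NGO. These 3 also had lower deposited values in GO. Mael, of the piRNA pathway and the chromosome axis list, had 20.2 FPKM in GO and 19.2 in NGO. The more abundant Sycp3 and Syce2 lay nearer the median gene: Sycp3 had 65.4 in GO and 30.0 in NGO (-0.20), and Syce2 had 148 in GO and 51.4 in NGO (0.19). For KO oocytes 2 genes of the list were at least 2-fold lower and 0 higher after rescaling, beside 2.59% and 5.37% of all genes.

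In the germ-cell RNA and piRNA pathway 23 of 30 genes passed, with 2 at least 2-fold higher and 4 lower, beside 6.06% and 3.27% of all genes. The median was -0.12, and 0.00 over the 29 in the table. Henmt1, which methylates the end of piRNAs, had 98.4 FPKM in GO and 15.7 in NGO (1.29), and Mov10 had 3.83 in GO and 0.271 in NGO. The helicase Mov10l1, which starts piRNA production, had 1.97 in GO and 3.39 in NGO (-1.59). Fkbp6, Tdrp and Mael were the other 3 lower ones, and each of them had a higher deposited value in GO. KO oocytes had 2 higher and 0 lower, beside 5.37% and 2.59% of all genes.

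Of 32 genes of Cdk1 and its regulators, 28 passed the filter, with a median of -0.03. After rescaling 2 cyclins were at least 2-fold higher and 1 lower, which is near the shares of all genes, 6.06% and 3.27%. Ccnb3, a cyclin needed for anaphase I in oocytes, had 6.66 FPKM in GO and 0.267 in NGO (2.02), and Ccne2 had 56.5 in GO and 9.51 in NGO. Ccnd3 was the decreased one, with 10.4 in GO and 10.8 in NGO (-1.28). Ccnb1, the cyclin of meiotic resumption, which has near-identical copies, had 355 FPKM in GO and 76.5 in NGO (0.88), and Wee2, the oocyte kinase that inhibits Cdk1, had 86.8 in GO and 37.2 in NGO (-0.10). Of 36 spindle and cortical actin genes 1 was higher, namely Fmn2, the formin that moves the meiotic spindle, with 42.8 FPKM in GO and 6.09 in NGO (1.41), and 2 were lower. None of the 40 spindle checkpoint and APC genes, of the 17 genes of meiotic arrest and the Mos pathway or of the 35 genes that act on RNA-DNA hybrids and R-loops was called after rescaling. Rnaseh1 itself had 27.8 FPKM in WT GO and 8.61 in WT NGO (0.35), and 3.10 in KO GO and 0.931 in KO NGO.

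Of 34 genes of growth control by PI3K, Foxo3 and mTOR, 33 passed, with a median of -0.13, 0 higher and 1 lower. That was Eif4ebp1, the mTOR target that holds back translation initiation, with 16.5 FPKM in GO and 14.8 in NGO (-1.11). Foxo3, which keeps primordial oocytes dormant, had 4.67 in GO and 1.58 in NGO (0.18). Rheb, the activator of mTOR, had 198 in GO and 87.3 in NGO (-0.14).

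Stress and chaperone genes, like those of translation and metabolism described next, had negative medians. Of 25 stress and chaperone genes compared, 0 were at least 2-fold higher and 4 lower after rescaling, with a median of -0.27 and 17 below the median gene. Xbp1, at -1.97, was joined by Calr, an endoplasmic reticulum chaperone, with 245 FPKM in GO and 203 in NGO (-1.05), and by Pdia3 and Asns. Atf4, the factor of the amino acid response, went the other way without reaching 2-fold, with 241 in GO and 50.8 in NGO (0.91). The 20 aminoacyl-tRNA synthetases had a median of -0.41, with 17 below the median gene and 0 called. The 28 genes of pyruvate entry and the citric acid cycle had -0.32 with 23 below the median gene, and the 14 of glycolysis had -0.38 with 11 below it, or -0.18 over the 19 in the table. Each of these 2 lists had 1 gene at least 2-fold higher and 0 lower, Pdhx at 1.04 and Pfkp at 1.29. Of 25 glutathione and antioxidant genes 1 was higher and 3 lower, the lower ones being Cat, Gsr and Gstm1, with a median of -0.32, or -0.22 over the 30 in the table.

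The 76 cytosolic ribosomal protein genes had a median of -0.24, with 57 below the median gene, 3 at least 2-fold higher and 1 lower. The 80 nuclear-encoded respiratory chain genes had -0.17, with 58 below the median gene, 3 higher and 1 lower. Both counts of higher genes are under the share of all genes, 6.06%. For KO oocytes both medians were -0.53, with 1 higher and 6 lower of the ribosomal genes and 1 higher and 2 lower of the respiratory genes. The shares of all genes in KO were 5.37% higher and 2.59% lower, and the respiratory count of lower genes is near that share. Rps28, Rpl39, Cox7c and Uqcr11 were at least 2-fold higher in WT but not in KO, where their rescaled differences were -0.93, -0.20, -0.79 and -0.44 in this order. Cox7c had 36.3 FPKM in WT GO and 6.86 in WT NGO, and 14.3 in KO GO and 9.49 in KO NGO. The 76 mitochondrial ribosomal protein genes had a median of -0.08, the 38 proteasome genes -0.08 and the 42 translation initiation factors -0.14. Of the 39 nucleolar ribosome biogenesis genes 1 was called, Dkc1, the pseudouridine synthase dyskerin, with 39.9 FPKM in GO and 5.12 in NGO (1.54).

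In the KO columns, which share no column with the WT step, the pattern was alike in the main. After rescaling, 543 genes (5.37%) were at least 2-fold higher in KO GO and 262 (2.59%) lower. Higher in both genotypes were 378 genes, 61.7% of those of WT and 69.6% of those of KO, and lower in both were 146, that is 44.1% and 55.7%. Of the 613 genes higher in WT, 598 had a positive rescaled difference in KO, and of the 331 lower ones 327 had a negative one. The median rescaled difference of all genes in KO was -0.02. Across all genes compared the rescaled steps correlated with r = 0.777 and rho = 0.720, genes not being independent replicates. The WT and KO columns were scaled together, and no error of a step is known. Smim27 was among the increased WT genes whose rescaled difference was negative in KO, at -0.68. It had 6.41 FPKM in WT GO and 0.232 in WT NGO. In KO it had 0.890 in GO and 0.804 in NGO, so its deposited value was not lower in KO GO. Smim27 overlaps Ndufb6 on the other strand. Among decreased genes of at least 5 FPKM, Hmga1 had the highest rescaled difference in KO, at 0.30. It had 11.1 FPKM in WT GO and 11.9 in WT NGO, and 26.5 in KO GO and 7.88 in KO NGO. Hmga1 has a near-identical copy, Hmga1b, and overlaps a gene on the other strand, so its reads may be shared.

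**Figure D4:**
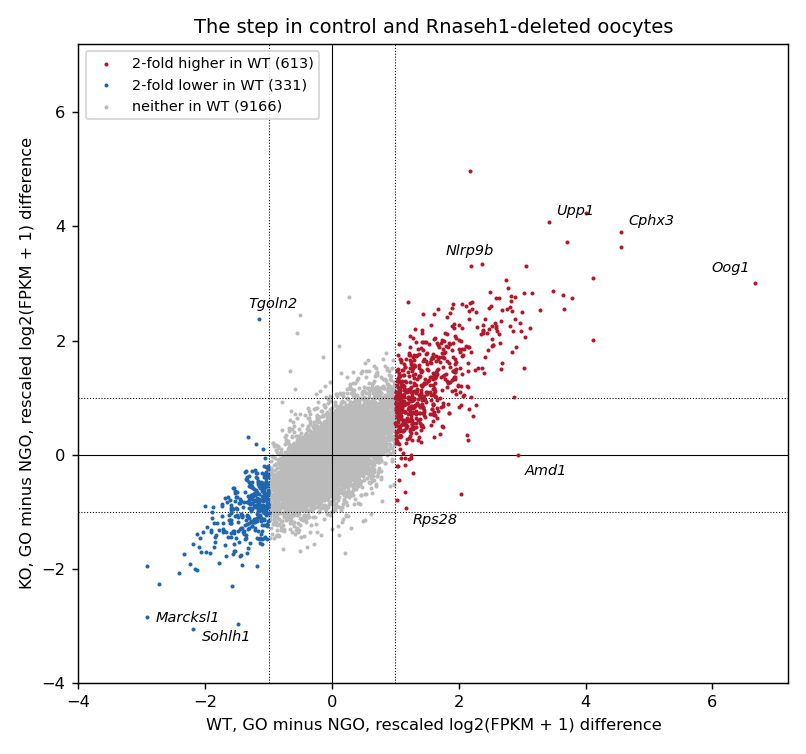
Rescaled log2(FPKM + 1) difference, GO minus NGO, in WT (x axis) against KO (y axis) for the 10110 genes, with dotted lines at 2-fold and colours by the WT call. Most of the 613 red points lie above 0 in KO (598) and most of the 331 blue ones below 0 (327). The median of all genes in KO was -0.02.

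The promoters of the increased genes held fewer CpG, as the 6 sequences above show for single genes. A RefSeq promoter was found for 8272 of the genes compared (81.8%), 475 of those at least 2-fold higher after rescaling and 275 of those lower. The 250 bases before the start held a median of 6 CpG in the increased genes, 13 in the decreased genes and 16 in all genes. The ratio of observed to expected CpG had medians of 0.39, 0.66 and 0.75 in this order. When genes were split into 10 equal bins by this ratio, 20.7% of the lowest bin were increased, 11.9% of the next and 1.81% of the highest. The decreased genes made up 2.78% of the lowest bin and 1.81% of the highest, with the highest share, 6.17%, in bin 3. KO columns had 19.4% increased in the lowest bin and 1.21% in the highest.

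Base composition of the transcript also differed between these groups of genes, and shares are given within bins of it and of level. The median GC content of the longest transcript was 46.7% in the increased genes, 53.2% in the decreased genes and 49.0% in all genes. Genes were therefore split into 3 bins of transcript GC and, within each, 5 bins of promoter CpG ratio. In the lowest GC bin, 23.9% of the genes of lowest CpG ratio were increased and 2.59% of those of highest ratio. In the middle GC bin the shares were 15.3% and 1.28%, and in the highest 8.57% and 1.25%. Split by the mean of the KO columns, 21.9% at the lowest ratio and 2.57% at the highest were increased in the lowest bin of level, 12.9% and 1.99% in the middle bin, and 10.2% and 0.716% in the highest. Among protein-coding genes with a proper name the shares were 13.5% at the lowest ratio and 1.72% at the highest. The difference in share was thus present in each bin of GC and in the middle and highest bins of level. It was also seen in the lowest bin of level, but the filter acts on that bin. A gene with a KO mean under 1 FPKM passed the filter only through its WT columns. With 10 bins of level, the lowest ended at 1.36 FPKM and had 15.5% increased and 0.396% decreased genes. The bins of GC and of CpG ratio hold genes of all levels, these low ones included. How far the filter sets the shares there and in the lowest bin of level was not tested.

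**Figure D5:**
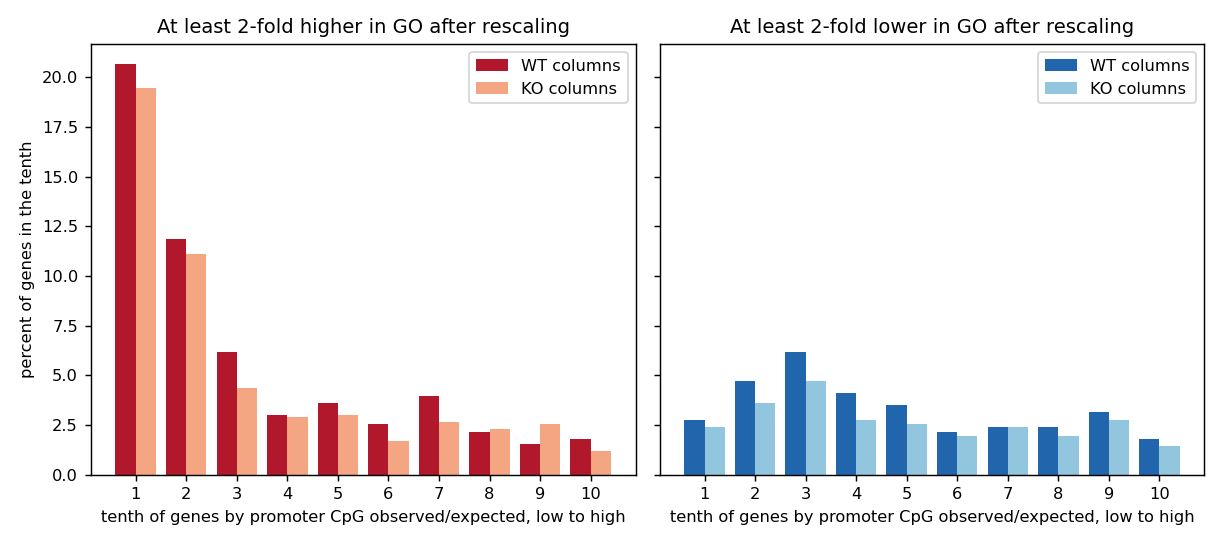
Percent of genes at least 2-fold higher (left) and lower (right) in GO after rescaling, in 10 equal bins of 8272 genes by the promoter ratio of observed to expected CpG, for WT columns (dark bars) and KO columns (light bars). The share of increased genes is 20.7% in the lowest bin and 1.81% in the highest in WT, and the share of decreased genes is between 1.81% and 6.17%.

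Short motifs were counted in the same 250 bases on both strands. TAATTG, the core bound by NOBOX, was present in 10.1% of the increased promoters, 3.27% of the decreased and 4.75% of all. TATAAA, the core of the TATA box, was in 12.6%, 5.09% and 6.37% in this order. The E-box CANNTG, which Sohlh1 and Figla bind, was in 66.5%, 62.9% and 57.1%, and its form CACGTG in 6.53%, 11.6% and 8.74%. TGATTG was in 14.9%, 14.5% and 15.1%, and CCAAT in 34.5%, 38.2% and 38.1%. Base composition moved with these shares: the median GC content was 53.2% in the increased promoters, 60.0% in the decreased and 59.6% in all, and its part in the motif shares was not tested. A match is a description of letters and not of binding. Of the promoters printed above, Mbd3l2 has 1 TAATTG and Cphx3 1 TATAAA.

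Gene type and position were compared in the same way. RefSeq calls 70 of the 613 (11.4%) long non-coding RNA, 4 of the 331 decreased genes (1.21%) and 258 of the 10110 (2.55%). The median length of the longest transcript was 2622 nt in the increased genes, 2416 nt in the decreased genes and 3229 nt in all genes. Another increased gene lay within 200 kb of 19.9% of the increased genes with a position, and an increased gene lay within that distance of 14.3% of the other genes. For the decreased genes the shares were 23.6% and 14.2%. By chromosome, the increased share was highest on the X chromosome, with 32 of 328 genes (9.76%), and on chromosome 3, with 9.35%, and lowest on chromosome 5, with 3.61%. In KO it was 7.62% on the X chromosome, and the highest share was 9.07%, on chromosome 13. The decreased share on the X chromosome was 4.57% in WT and 4.88% in KO, beside 3.27% and 2.59% of all genes.

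Among genes with a proper name listed at 0 in NGO, the highest in GO were Ccl2, a chemokine, at 4.17 FPKM, Havcr1 at 2.54, Prl8a2 at 1.81, Slc26a9 at 1.77 and Sftpd at 1.57. No fold is given for them, since a value listed at 0 can be a failed estimate. The 10 highest of these genes all stood under 5 FPKM in GO.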

How the data were processed

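Polyadenylated RNA of mouse oocytes was read from libraries of 500 pg cDNA as 150 bp pairs, per the labels' protocols. Per the submitters' processing notes, the authors' tools were Cufflinks 2.2.1, HISAT2 2.2.1 and Trim Galore 0.6.7, with the mm10 build. The deposited unit is FPKM after an adjustment by the authors to the ERCC RNA, per the file's name. The formula and the gene annotation are not stated in those notes. Read depth is unknown, so no counting error can be given, and a value listed at 0 may be a failed estimate. The table has 25912 lines, of which 2 held error marks. For 333 symbols on several lines the line of largest mean was kept (44 of the genes compared). There were 6 value columns and 0 of them lacked a sample or group.

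Differences were taken on log2(FPKM + 1), which understates the change of low genes, and called at 2-fold. Rescaling divided each column by the median, over genes above 0 throughout, of its ratio to the gene's geometric mean. The tests planned for replicated samples could not be run. The members and gene lists were chosen with earlier results of these data known. Named genes were Rnaseh1, the 20 largest rescaled increases and 20 decreases with at least 5 FPKM in the higher WT column and a proper name, and the 10 most abundant, most gained, most lost or listed at 0. All members of lists of up to 25 genes could be named, and otherwise the 5 most increased, decreased and abundant. The calling steps were tested on simulated data. Alternatives were a pseudocount of 0.1, 3 other filters, 4-fold calls, equal column totals, symbols on 1 line and genes above 0.

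Promoters and positions came from RefSeq (GRCm38.p6), and transcripts from GENCODE M21, searched with blastn 2.17.0 for near-identical copies (at least 95% identity over 50% of the length). Exon overlaps of 100 nt or more were counted as shared. Software was Python 3.11.15 with numpy 2.4.6, pandas 2.3.3 and matplotlib 3.10.9.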

Additional observations from a re-analysis of the deposited data

Results flagged for a closer look

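Tgoln2, which encodes a membrane protein of the trans-Golgi network, had rescaled differences of opposite sign in the genotypes. Its rescaled log2 difference, GO minus NGO, was -1.15 in WT and 2.39 in KO. WT had 8.39e-07 FPKM in GO and 0.626 in NGO, and KO had 5.18 FPKM in GO and 1.97e-06 in NGO. Both WT values and the NGO value in KO were under 1 FPKM, so the size of each difference depends on the pseudocount. Whether the values of 8.39e-07 and 1.97e-06 FPKM are failed estimates was not tested. With 1 column per group the difference between genotypes was not tested.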

How the results depend on the processing

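No paired analysis was possible because the table has 1 column per group, so its columns carry no replicate number and no replicate could be left out. As deposited, the 5540 higher genes became 625 at 4-fold and 668 with equal column totals, and the 13 lower genes became 42 with a pseudocount of 0.1, 3 with a mean of at least 5 FPKM, 0 at 4-fold and 309 with equal totals. After rescaling, the 613 higher genes became 1026 with the pseudocount of 0.1 and 115 at 4-fold, and the 331 lower genes became 546 with that pseudocount, 169 with a mean of at least 5 FPKM and 16 at 4-fold. The median difference of 1.06 became 1.28 with the pseudocount of 0.1, 0.0902 without a filter, 1.20 with a mean of at least 5 FPKM, 0.0230 with equal totals and -0.00618 with rescaling. By construction, a stricter filter or fold leaves fewer genes, a smaller pseudocount enlarges every difference, and the last 2 scalings remove the common shift. The cause of the other changes was not tested. The other filters moved no count of genes by over 1.5 times. The 40 genes of largest rescaled difference kept their direction and 2-fold size with the pseudocount of 0.1, equal totals and a filter on the WT columns alone. Of the 42 list medians, 3 moved by 0.1 or more with that pseudocount, 0 with equal totals and 9 without a filter. Depth is unknown, so a gene near 0 in NGO has a fold of unknown error.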

Other observations

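Of 40 genes of double-strand break repair compared, 2 were at least 2-fold higher in GO after rescaling and 0 lower, with a median of -0.05, where 6.06% of all genes were higher, so the count is no more than that share. Lig4, the ligase of end joining, had 35.9 FPKM in GO and 5.31 in NGO (1.35 after rescaling), and Nhej1 had 78.2 in GO and 14.5 in NGO (1.08). In KO oocytes 0 of the list were called, beside 5.37% of all genes higher and 2.59% lower. Lig4 was at 0.91 there and Nhej1 at 0.43. Among the 28 genes of the p53, Bcl2 and caspase list 0 were higher and 1, Bid, was lower, with 0.219 FPKM in GO and 1.29 in NGO. The list took 1.46% of the summed FPKM in GO and 0.935% in NGO, mostly through Bcl2l10.

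Of 22 lipid genes compared 2 were higher and 2 lower after rescaling, beside 6.06% and 3.27% of all genes. Apoe, a lipoprotein component, had 18.1 FPKM in GO and 1.86 in NGO, and Plin2, which coats lipid droplets, had 5.78 in GO and 0.703 in NGO. Sqle, of cholesterol synthesis, had 6.24 in GO and 7.06 in NGO. The Id genes, inhibitors of basic helix-loop-helix factors, stood below the median gene. Id1 had 3.84 FPKM in GO and 5.20 in NGO (-1.48), Id2 had 2.42 in GO and 2.47 in NGO (-1.01), and Id3 had 195 in GO and 135 in NGO (-0.79). Among adhesion genes Nectin2 and Epcam were the 2 lower ones of 17 compared, with 0 higher. Nectin2 had 2.43 FPKM in GO and 4.37 in NGO. Epcam had 0.627 in GO and 1.73 in NGO. Of 29 RNA polymerase subunits 0 were higher and 1 lower, namely Polr2a, the largest subunit of polymerase II, with 3.86 FPKM in GO and 4.11 in NGO. Of 31 histone and histone chaperone genes 1 was higher, H2ac1, and 2 lower, H1f2 and Macroh2a1.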
